A study of Mus musculus with 4 samples.

Results

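The small leucine-rich proteoglycans are a family of secreted matrix proteins, and 10 of their genes were examined here, namely Dcn, Bgn, Aspn, Ogn, Omd, Fmod, Lum, Prelp, Kera and Epyc. They were chosen by gene symbol, and each was measured by 1 probe set, out of 19505 named genes on the array. The family was taken up because an earlier look at these data had shown a low signal of Dcn in the knockout cells, so the values of Dcn are a description and no independent evidence. RNA came from MC38, a mouse colon adenocarcinoma cell line, hybridised to the 1-colour Clariom S mouse array. The control group held the cells labelled WT and the empty-vector cells labelled MOCK, and the knockout group held the cells labelled KO T5 clone 1 and KO T5 clone 2, called clone 1 and clone 2 here, which the series title gives as CRISPR-Cas9 knockouts of Mgat5, with n = 2 arrays per group. The Mgat5 protein is a Golgi glycosyltransferase that branches N-glycans. Each knockout array stands for a clone and neither control is titled as one, so cloning and the knockout cannot be told apart. The labels name no separate cultures, so p-values here measure only the spread between these 4 arrays.

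The family shares a core of leucine-rich repeats, the curved fold by which its members bind collagen fibrils and growth factors. Decorin and biglycan carry chondroitin or dermatan sulfate chains, fibromodulin, lumican, keratocan and osteomodulin can carry keratan sulfate, and many members also carry N-glycans on the core protein. Fibroblasts and other cells of mesenchymal type are their usual source, and decorin in the matrix is known for holding back TGF-beta and several receptor tyrosine kinases.

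The genes of asporin, osteomodulin and osteoglycin lie next to each other on chromosome 13, and on the deposited scale their signals in both clones exceeded those of both controls, as was that of biglycan on chromosome X. The 250 bases before the start site of these genes are shown because the genes stood on the same side together. They come from the RefSeq table of build GRCm38.p6, which held a promoter for 8 of the 10 members, and all 4 lie on the plus strand. They are Aspn at chr13:49544193-49544442, Omd at chr13:49582212-49582461, Ogn at chr13:49607765-49608014 and Bgn at chrX:73483351-73483600. Capitals mark matches on either strand to a short list of promoter motifs. The TATA box was searched as TATAAA. The CCAAT box was searched by the letters of its name. The GC box was searched as GGGCGG. The site of TEAD factors, partners of YAP, was searched as GGAATG.
Aspn: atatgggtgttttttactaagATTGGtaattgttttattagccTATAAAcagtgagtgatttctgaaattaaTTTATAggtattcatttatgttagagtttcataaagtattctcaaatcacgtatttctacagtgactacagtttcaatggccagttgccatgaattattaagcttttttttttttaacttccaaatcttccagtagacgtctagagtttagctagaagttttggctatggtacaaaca
Omd: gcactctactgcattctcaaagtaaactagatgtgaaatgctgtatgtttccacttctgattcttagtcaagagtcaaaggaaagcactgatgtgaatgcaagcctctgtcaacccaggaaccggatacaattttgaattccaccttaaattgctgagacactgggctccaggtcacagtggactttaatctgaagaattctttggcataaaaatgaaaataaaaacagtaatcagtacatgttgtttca
Ogn: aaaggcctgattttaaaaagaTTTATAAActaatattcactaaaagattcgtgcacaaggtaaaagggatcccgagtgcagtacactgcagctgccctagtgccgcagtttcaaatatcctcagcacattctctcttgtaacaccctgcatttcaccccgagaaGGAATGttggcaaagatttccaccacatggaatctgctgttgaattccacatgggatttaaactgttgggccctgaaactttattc
Bgn: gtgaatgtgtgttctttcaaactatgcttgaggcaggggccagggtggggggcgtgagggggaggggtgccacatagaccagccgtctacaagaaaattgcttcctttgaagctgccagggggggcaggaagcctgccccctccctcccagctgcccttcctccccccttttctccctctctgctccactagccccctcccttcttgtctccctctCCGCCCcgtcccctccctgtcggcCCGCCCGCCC
The Aspn window held the TATAAA letters on each strand and a CCAAT box, and the Ogn window held overlapping TATAAA matches on both strands and a TEAD match. The TATAAA matches lay between 207 and 173 bases before the start site in Aspn, and between 229 and 222 bases before it in Ogn. Bgn held GC boxes only, 3 of them and 2 overlapping by a pair of bases, in a window of 64.4% G and C against 30.0% in Aspn, 38.4% in Omd and 42.0% in Ogn. Omd held none of these letters. Among 32851 RefSeq promoter windows of the same length, 12.4% held a TATAAA match, 33.8% a CCAAT match, 32.7% a GC box and 12.6% a TEAD match. The AP-1 letters (TGANTCA, in 6.75% of all windows) and the core of the cAMP response element (TGACG, in 17.8%) were also searched on both strands and are in none of these 4 windows. No set of letters was thus shared by all 4 windows, and a match describes the window without showing that a factor binds there.

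Signals are log2 values as deposited, and each probe set was read only against itself across arrays. Background was judged by 5222 negative control features of the array, known by their identifiers, with a median between 5.12 and 5.22 and a 75th percentile between 6.29 and 6.56 over the 4 arrays. The arrays differed in their upper range, since the 99th percentile of all 22206 probe sets was 15.9 in MOCK, 15.8 in both clones and 14.7 in WT. Over all probe sets the knockout less control difference had a median of 0.18 log2 units, which quantile normalization brought to -0.02, so each member is also given on the latter scale. Of the epithelial markers 0 of 14 exceeded the 75th percentile of the negative controls on any array, with Epcam between 3.13 and 3.65 and Cdh1 at 4.89 or less. Of 14 fibroblast and stromal markers 4 exceeded it on all 4 arrays, namely Vim, Pdgfrb, Pdpn and Col3a1, while Col1a1, Thy1 and Dpt did not on any.

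Dcn, Bgn, Aspn, Ogn and Omd exceeded the 75th percentile of the negative controls on all 4 arrays, and the other 5 members did not on any. Both clones lay above both controls for 5 of the 10 members, a position that 27.8% of all probe sets held, and for 4 of 10 after quantile normalization, against 19.2%. Both clones lay below both controls for 1 member, Dcn, on either scale, against 11.7% of all probe sets as deposited and 21.3% after quantile normalization. Among the 5 detected members both clones were above for 4, or 3 after quantile normalization. Of probe sets above that 75th percentile on 2 or more arrays, 35.6% lay above and 3.93% below as deposited. After quantile normalization these shares were 18.5% and 22.2%. The median difference of the 10 members was 0.78 log2 units, or 0.70 after quantile normalization. limma called 0 of the 10 members at an adjusted p under 0.05, where it called 0.0405% of all probe sets. At an unadjusted p under 0.05 it held 6 of the 10, or 5 after quantile normalization, against 8.75% and 8.92% of all probe sets. The 6 include Dcn, for which the family was chosen, and Fmod, which was under the negative control median on every array. The count is therefore a description and no independent evidence.

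**Figure D1:**
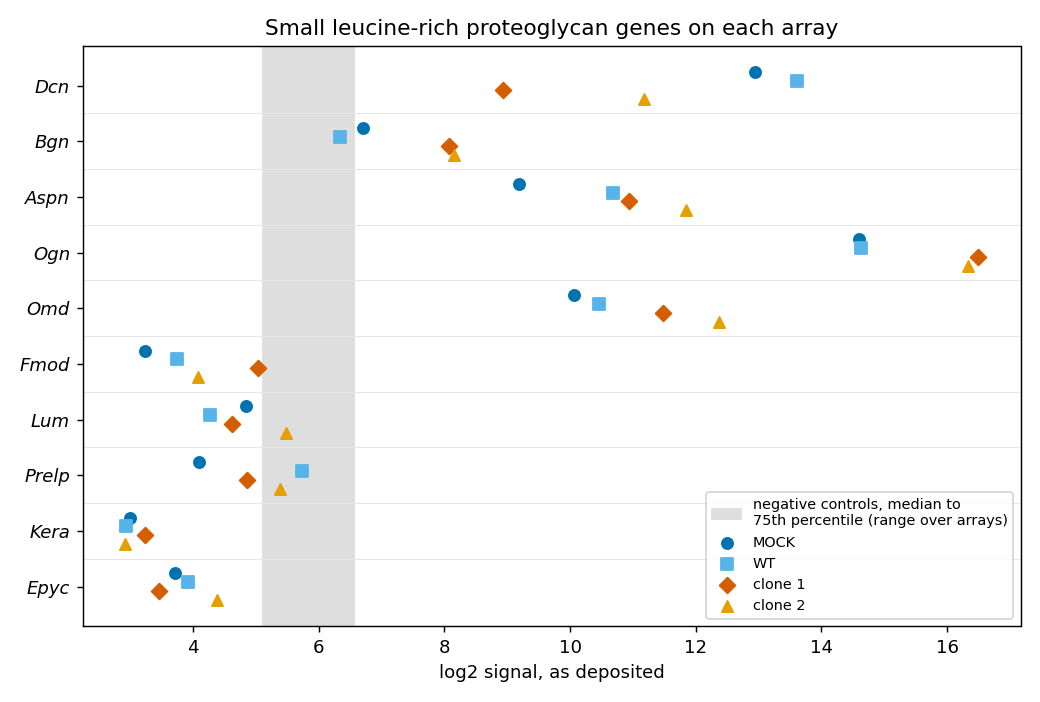
Log2 signal as deposited (horizontal axis) of each of the 10 family genes (vertical axis) on the MOCK, WT, clone 1 and clone 2 arrays, with the grey band running from the lowest median to the highest 75th percentile of the negative controls. Dcn is lower in both clones, at 8.94 and 11.18, than in both controls, Bgn, Aspn, Ogn and Omd are higher, and the other 5 genes stay within or below the band.

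Dcn encodes decorin, the best known binder of collagen fibrils and TGF-beta in the family. Its signal was 13.61 in WT, 12.95 in MOCK, 8.94 in clone 1 and 11.18 in clone 2. Both clones were far below both controls, and clone 1 was the lower of the clones by 2.24 log2 units, beside 0.67 between the controls. After quantile normalization these distances were 2.06 and 1.55. The control arrays averaged 13.28 ± 0.47 and the knockout arrays 10.06 ± 1.58 (SD, n = 2 each). Clone 1 stood 20.3-fold and clone 2 4.30-fold below the control mean, and on the quantile-normalized scale the differences were -4.75 and -2.69 log2 units. As deposited 3 of the 22206 probe sets, Dcn included, had a mean difference as low as that of Dcn, and 2 did after quantile normalization. The family was taken up for the low Dcn, so this rank is a description.

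The difference of Dcn was -3.22 log2 units (SE 0.63) and did not pass limma over all probe sets (adjusted p = 0.121, and 2.69e-06 to 1 over the alternatives). It passed where dim probe sets were left out, with an adjusted p of 2.69e-06 above the median of mean signal and 0.00672 above the 25th percentile, and with a trended and robust prior (4.25e-06). In those fits 0.171%, 0.048% and 0.194% of the probe sets tested were called lower. Dcn did not pass after quantile normalization (limma adjusted p = 0.22). Its low signal was the reason for taking up the family, so these p-values and shares are no independent evidence. Without clone 2 the difference was -4.34 (adjusted p = 6.51e-05, with 0.0766% of probe sets called lower) and without clone 1 it was -2.10 (adjusted p = 0.0238, with 0.221% called lower). In these fits the knockout arm is 1 array, the controls alone give the spread and the lone clone is assumed to vary like them, so they carry no replication of a clone. Without MOCK or without WT the difference was -3.56 and -2.89 and did not pass. The arrays hold RNA of whole cultures, so fewer cells with the transcript and less transcript per cell cannot be told apart.

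Bgn encodes biglycan, the closest relative of decorin and a ligand of Toll-like receptors when it is free of the matrix. Its signal was 6.34 in WT and 6.71 in MOCK, against 8.08 in clone 1 and 8.16 in clone 2. The clones lay close together and above both controls, and the controls were only just above the 75th percentile of the negative controls on their arrays, 6.29 in WT and 6.56 in MOCK. The control mean was 6.53 ± 0.26 and the knockout mean 8.12 ± 0.06 (SD, n = 2 each), a difference of 1.59 log2 units (SE 0.38, limma adjusted p = 0.224, and 0.0547 to 1 over the alternatives), or 1.24 after quantile normalization. Fold values of Bgn (2.94 in clone 1 and 3.10 in clone 2) therefore rest on control signals near background.

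Ogn encodes osteoglycin, also called mimecan, a small member found in bone, cornea and vessel walls. Its signal was 14.63 in WT, 14.60 in MOCK, 16.49 in clone 1 and 16.34 in clone 2. The controls were 0.04 apart, the clones 0.15 apart, and the groups were separated by a gap of 1.70 log2 units. The knockout mean of 16.41 ± 0.11 was 3.48-fold above the control mean of 14.61 ± 0.03 (SD, n = 2 each), with an SE of 0.37 log2 units (limma adjusted p = 0.141, and 0.0596 to 1 over the alternatives). After quantile normalization, which lifted the WT array with its narrower upper range, the signals became 15.46 in WT, 14.28 in MOCK, 16.24 in clone 1 and 16.15 in clone 2. The gap was then 0.69 log2 units and the difference 1.32, and the controls lay 1.18 apart.

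Omd encodes osteomodulin, a keratan sulfate proteoglycan of mineralised tissue. Its signal was 10.45 in WT, 10.07 in MOCK, 11.48 in clone 1 and 12.38 in clone 2. Both clones were above both controls, clone 2 the more so. The difference was 1.66 log2 units (SE 0.43, limma adjusted p = 0.262), 2.32-fold in clone 1 and 4.33-fold in clone 2, and 1.20 log2 units after quantile normalization. Omd passed in 1 alternative, without clone 1, at 2.12 log2 units (adjusted p = 0.0197), where 2.16% of all probe sets were called higher and clone 2 is the only knockout array, with the spread from the controls alone.

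Aspn encodes asporin, a relative of decorin that binds collagen and TGF-beta and as a rule lacks a glycosaminoglycan chain. Its signal was 10.68 in WT, 9.19 in MOCK, 10.94 in clone 1 and 11.85 in clone 2. The controls were 1.49 apart, and clone 1 lay only 0.26 above WT. The difference of 1.46 log2 units (SE 0.53, limma adjusted p = 0.468) was thus no larger than the distance between the controls. After quantile normalization it was 0.98, and clone 1 at 10.82 lay below WT at 11.20, so the groups overlapped on that scale.

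**Figure D2:**
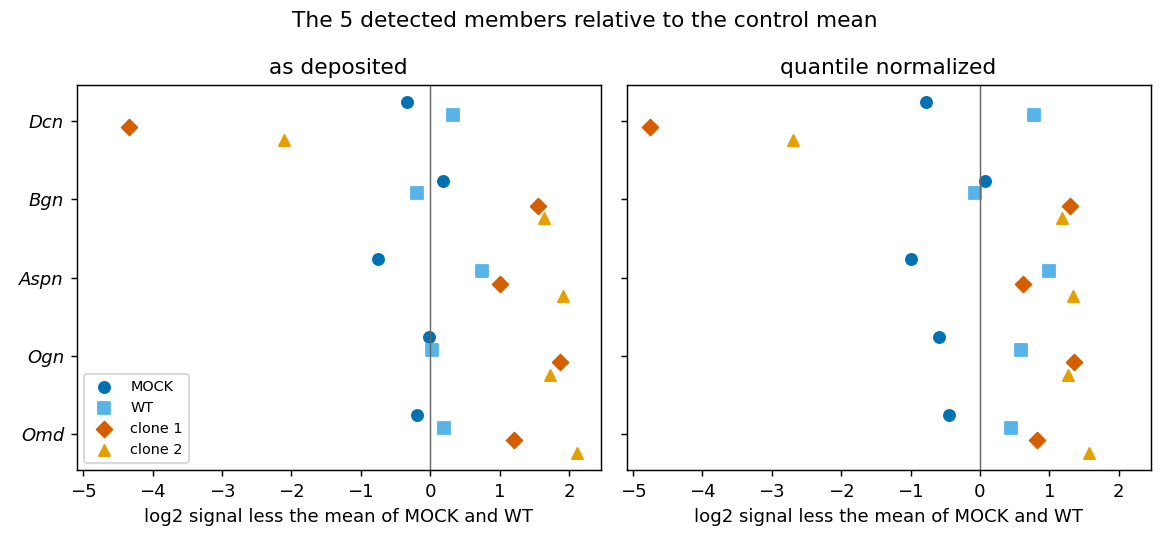
Log2 signal of the 5 detected members on each array less the mean of MOCK and WT (horizontal axis), as deposited on the left and after quantile normalization on the right, with each point 1 array. Dcn stands at -4.34 in clone 1 and -2.10 in clone 2 as deposited, while the 4 other genes lie to the right of the controls, except that clone 1 falls between the controls for Aspn after quantile normalization.

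Each clone was also set against the control mean as a single array, with no test. In clone 1, 5 members were at least 1 log2 unit higher (Bgn, Ogn, Omd, Aspn and, near background, Fmod) and 1 was lower (Dcn), where 6.31% and 2.3% of all probe sets were. In clone 2, 4 were higher (Bgn, Ogn, Omd and Aspn) and Dcn was lower, where 11.8% and 1.91% of all probe sets were. After quantile normalization the counts were 3 higher (Bgn, Ogn and Fmod) and 1 lower in clone 1, against 3.94% and 3.03%, and 4 higher and 1 lower in clone 2, against 5.41% and 4.54%. Between the controls, Aspn and Prelp were at least 1 log2 unit lower in MOCK than in WT, as were 1.27% of all probe sets, and 0 members were higher, against 8.79%.

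The change of each other detected member can be read less that of Dcn, which removes a constant shift of an array but not a difference in its range. The change of Ogn exceeded that of Dcn by 5.02 log2 units, by 6.22 in clone 1 and 3.83 in clone 2, where the difference between MOCK and WT exceeded it by 0.63. The excess was 4.82 for Bgn, 4.89 for Omd and 4.68 for Aspn, with 1.04, 0.28 and -0.83 between MOCK and WT. After quantile normalization the 4 excesses ran from 4.70 to 5.04. Each of these values holds the -3.22 of Dcn itself, for which the family was chosen, so they are a description and have no test.

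The remaining members were near background. Fmod, which encodes the collagen-binding keratan sulfate proteoglycan fibromodulin, had signals of 3.74 in WT, 3.24 in MOCK, 5.04 in clone 1 and 4.08 in clone 2. Every array was under the negative control median, so its order carries no fold. Lum, for lumican, a regulator of fibril spacing in the cornea, was below that median in MOCK (4.85), WT (4.28) and clone 1 (4.62) and above it in clone 2 (5.48). Prelp, whose product anchors basement membranes to the matrix, ran from 4.09 in MOCK to 5.74 in WT with the clones between them. Kera, for the corneal keratocan, ran from 2.93 to 3.25, and Epyc, for the cartilage protein epiphycan, from 3.46 to 4.38. For Lum, Prelp, Kera and Epyc the clones did not separate from the controls.

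The relatives of decorin lie in gene clusters, so their chromosomal neighbours were set beside them, chosen after the members' values were known as the 5 measured genes on each side. Dcn is followed on chromosome 10 by Lum, Kera and Epyc, all near background. Among its 10 other neighbours, 8 were above the 75th percentile of the negative controls on at least 2 arrays, and their differences ran from -0.57 (Nudt4) to 0.19 (Btg1), or from -1.05 to -0.27 after quantile normalization. Btg1, the measured gene before Dcn and a brake on cell division, had its highest signal in clone 2 (13.37) and MOCK (13.04) and its lowest in clone 1 (12.27) and WT (12.22), without separating the groups. Both clones lay below both controls for 2 of the 10 neighbours and above for 0, against 11.7% and 27.8% of all probe sets. After quantile normalization they did for 7 and 0, the direction of Dcn, against 21.3% and 19.2% of all probe sets on that scale. The difference of Dcn, at -3.22 or -3.72 after quantile normalization, was lower than that of any of the 10.

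Aspn, Omd and Ogn have 10 such neighbours on chromosome 13. Both clones lay above both controls for 4 of them and below for 1, against 27.8% and 11.7% of all probe sets, and for 2 and 2 after quantile normalization, against 19.2% and 21.3%, shares near those of all probe sets. The 5 neighbours above background differed by 0.10 (Cenpp) to 1.02 log2 units (Ippk, an inositol phosphate kinase), or by -0.34 to 0.64 after quantile normalization, against 1.46 to 1.80 for the family genes, or 0.98 to 1.32. Ecm2, which encodes a leucine-rich matrix protein and is next to Aspn, was near background with signals from 4.18 to 4.95. Around Bgn on chromosome X, 0 of 10 neighbours had both clones above both controls and 1 had both below, on either scale. The shares of all probe sets were 27.8% and 11.7% as deposited and 19.2% and 21.3% after quantile normalization. The adjacent Haus7 differed by 0.24, while Atp2b3 on the other side was under the negative control median on all 4 arrays.

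**Figure D3:**
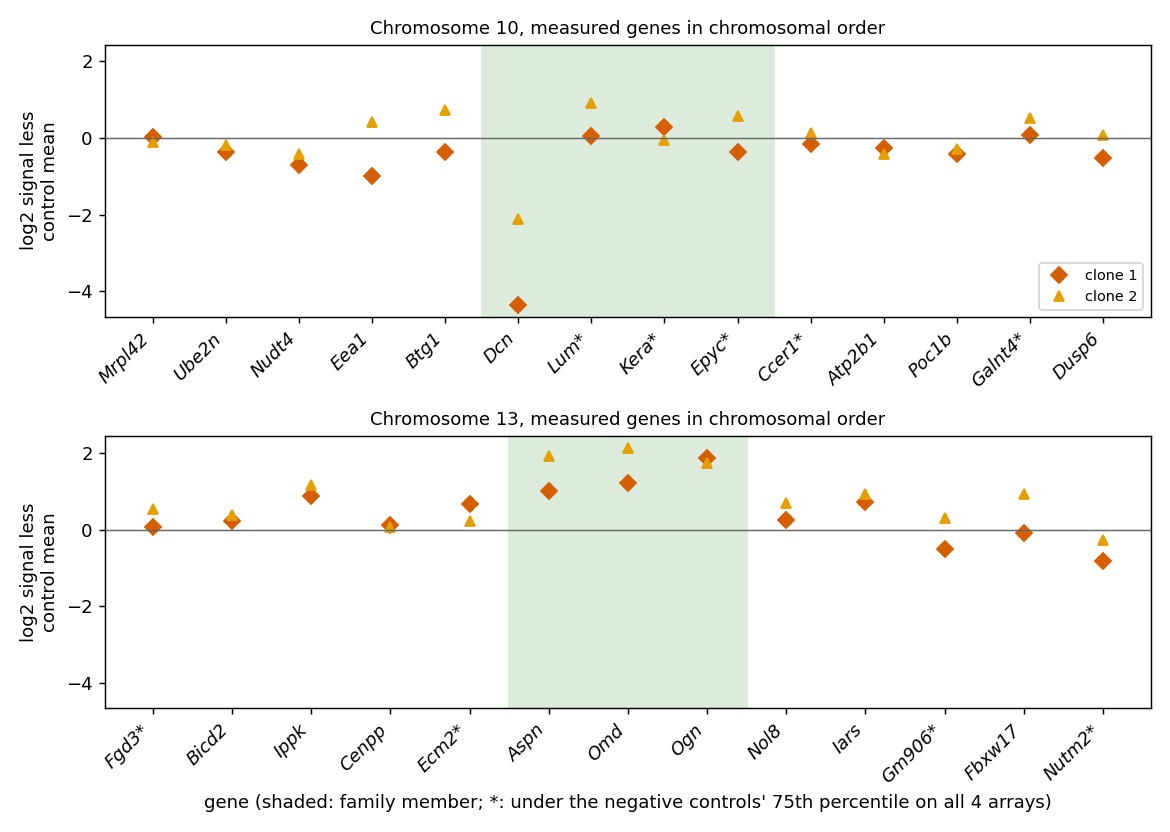
Log2 signal of clone 1 and clone 2 less the control mean (vertical axes, as deposited) for measured genes in chromosomal order around Dcn on chromosome 10 (top) and around Aspn, Omd and Ogn on chromosome 13 (bottom), with family members shaded and an asterisk on genes under the 75th percentile of the negative controls on all 4 arrays. Dcn stands alone at -4.34 and -2.10, and the shaded genes of chromosome 13 stand at 2.12 or less.

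The enzymes that build the sugar chains of the family were read next. Of 21 measured genes of chondroitin and dermatan sulfate synthesis limma called 0, with 2 at an unadjusted p under 0.05, against 8.75% of all probe sets. Both clones lay above both controls for 8 and below them for 1, against 27.8% and 11.7%. After quantile normalization they did for 7 and 4, against 19.2% and 21.3%. The median difference of the 21 genes was 0.16 log2 units, near the 0.18 of all probe sets. Xylt1, the xylosyltransferase that starts the chain on the core protein, stood at 6.61 in WT, 6.14 in MOCK, 7.14 in clone 1 and 8.14 in clone 2. Its MOCK signal was under the 75th percentile of the negative controls. Fam20b, the kinase that phosphorylates that xylose, differed by 0.68 (SE 0.37) and Ust, which sulfates uronic acid, by 1.00 log2 units (SE 0.39). After quantile normalization the differences were 0.89 for Xylt1, 0.23 for Fam20b and 0.61 for Ust. Dse and Dsel, the epimerases that turn chondroitin into dermatan sulfate, were named after their values were seen. Dse was the 1 gene below as deposited, where only 0.02 log2 units separated the groups. Its signals were 9.99 in MOCK, 9.97 in clone 1, 10.23 in WT and 9.55 in clone 2, and Dsel stayed between 8.93 and 9.15.

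Of 8 genes of keratan sulfate synthesis 0 were called, with both clones above both controls for 3 and below for 2, against 27.8% and 11.7% of all probe sets. The 2 below, B4galt4 and Chst5, were under the negative control median on every array. B3gnt7, among the 3 above, was under the 75th percentile of the negative controls on every array. After quantile normalization the counts were 2 and 2, against 19.2% and 21.3%. An unadjusted p under 0.05 was held by 1 gene of the list, against 8.75% of all probe sets. That 1 was B4galt1, a galactosyltransferase that also extends N-glycans, at 11.04 in WT, 11.65 in MOCK, 13.34 in clone 1 and 12.76 in clone 2 (1.71 log2 units, SE 0.41, limma adjusted p = 0.228, and 1.24 log2 units after quantile normalization). B3gnt2, which extends lactosamine chains, differed by 0.58, or by 0.14 after quantile normalization.

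Among 13 collagen and crosslinking genes limma called 0, with 1 at an unadjusted p under 0.05, against 8.75% of all probe sets. Both clones lay above both controls for 4 and below them for 1, against 27.8% and 11.7%. After quantile normalization they did for 2 and 1, against 19.2% and 21.3%. The 1 below was Col3a1, a fibrillar collagen that decorin binds, at 11.79 in WT, 11.80 in MOCK, 11.19 in clone 1 and 10.75 in clone 2 (a difference of -0.83 log2 units, SE 0.38, and -1.29 after quantile normalization). Col5a2, a chain of the collagen that sets fibril diameter, differed by 0.99 (SE 0.37), or by 0.67 after quantile normalization. Both controls of Col5a2 were under the 75th percentile of the negative controls. Of 13 other chondroitin sulfate proteoglycans 0 were called, with 2 at an unadjusted p under 0.05, against 8.75% of all probe sets. The 2 were Vcan and Cspg4, the latter near background. Both clones lay above both controls for 3 and below them for 2 (2 and 3 after quantile normalization), beside the same shares of all probe sets as for the collagens. Only Vcan and Srgn exceeded the 75th percentile of the negative controls on any array. Vcan, for the large matrix proteoglycan versican, stood at 10.75 in WT, 11.09 in MOCK, 8.96 in clone 1 and 10.53 in clone 2, which is the order of the clones seen for Dcn, with a difference of -1.18 log2 units (SE 0.51, limma adjusted p = 0.545) and -1.60 after quantile normalization.

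Ligands and receptors of decorin and biglycan lay above or below the controls about as often as all probe sets did. Of 20 measured genes limma called 0, with 5 at an unadjusted p under 0.05, against 8.75% of all probe sets. Both clones lay above both controls for 5 and below for 3, against 27.8% and 11.7%. The 3 below were Kdr and Mstn, under the negative control median on every array, and Lrp1, where 0.09 log2 units separated the groups. Kdr is also among the 5 at an unadjusted p under 0.05. After quantile normalization they did for 5 and 5, against 19.2% and 21.3%. Tlr2, a receptor of free biglycan, stood at 5.80 in WT, under the 75th percentile of the negative controls, 6.67 in MOCK, 7.60 in clone 1 and 8.23 in clone 2. Tlr2 differed by 1.68 log2 units (SE 0.44, limma adjusted p = 0.274), or by 1.35 after quantile normalization. It passed with a trended and robust prior (adjusted p = 0.0332) and without clone 1 (0.0417), where clone 2 is the only knockout array. Tgfb2, which decorin binds, differed by 1.37 (SE 0.41) and Tgfbr1, its signalling receptor, by 1.26 log2 units (SE 0.39). After quantile normalization these differences were 0.97 and 0.86. Met and Egfr, receptor kinases that decorin restrains, were outside the naming rule, and Met had a signal of 8.34 in clone 2 and of 9.43 to 9.83 on the other arrays, while Egfr was near background, between 4.15 and 4.44.

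Of 14 proteases that can cut family members limma called 0, with 4 at an unadjusted p under 0.05, against 8.75% of all probe sets. Both clones lay above both controls for 4 and below them for 1, against 27.8% and 11.7%. The same 4 genes made up both counts. Of them Adamts4 was under the 75th percentile of the negative controls on every array, and Mmp13 under their median on every array. After quantile normalization they did for 3 and 1, against 19.2% and 21.3%. Adamts1, a proteoglycan-cleaving metalloprotease, stood at 9.79 in WT, 10.21 in MOCK, 11.59 in clone 1 and 11.08 in clone 2 (1.34 log2 units, SE 0.40, limma adjusted p = 0.353, and 0.91 log2 units after quantile normalization). Htra1, a secreted serine protease, differed by -0.43 (SE 0.37), or by -0.88 after quantile normalization. Mmp14, a membrane-bound metalloprotease, differed by 1.19, or by 0.74 after quantile normalization, where its groups overlapped. It was 13.07 in clone 2 and between 10.94 and 11.44 on the other arrays. It passed without clone 1 (2.01 log2 units, adjusted p = 0.0277), where clone 2 alone stands against the controls, which give the spread. Of 7 other leucine-rich relatives of the family 0 were called and 0 had an unadjusted p under 0.05, with signals near background throughout. Both clones lay above both controls for 1 and below for 4 (0 and 4 after quantile normalization), beside the same shares of all probe sets.

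**Figure D4:**
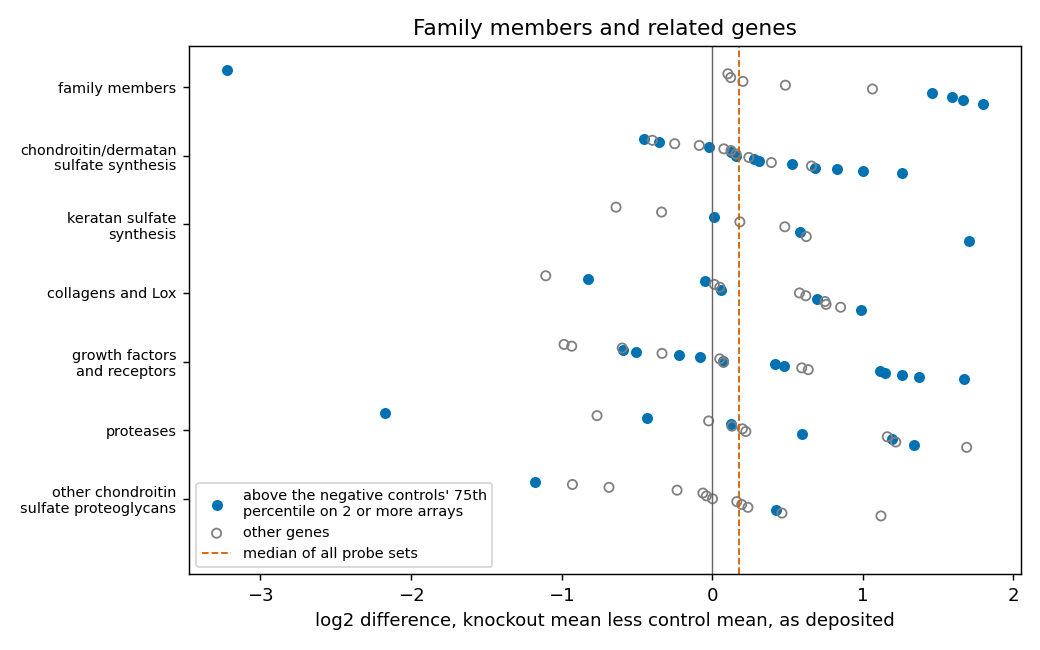
Difference between the knockout and control means (horizontal axis, log2 units as deposited) for each measured gene of the family and of related gene groups (vertical axis), filled where the gene was above the 75th percentile of the negative controls on at least 2 arrays. Dcn at -3.22 is the lowest point shown, and the dashed line marks the median of all probe sets at 0.18.

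Marker genes of other cell types were read beside these values. The mean log2 signal of the 14 fibroblast and stromal markers was 6.78 in WT, 7.01 in MOCK, 6.88 in clone 1 and 7.37 in clone 2, and did not follow the order of Dcn. Only 6 of the 14 exceeded the 75th percentile of the negative controls on any array, so that mean is largely one of genes near background. For this list limma called 0 genes, with 0 at an unadjusted p under 0.05. Both clones lay above both controls for 2 and below for 1, against 27.8% and 11.7% of all probe sets. After quantile normalization they did for 1 and 1, against 19.2% and 21.3%. Col3a1, described above, was the 1 below, at -0.83 or -1.29 after quantile normalization, the direction of Dcn. Postn, for the matrix protein periostin, named after its value was seen, had a signal of 9.09 in clone 2 and of 4.79 to 6.41 on the other arrays. Pdgfrb, a receptor of mesenchymal cells, differed by 0.42, and by -0.04 after quantile normalization. Endothelial markers (8 measured) exceeded the 75th percentile of the negative controls on no array, and of 7 leukocyte markers Cd14 alone did, at 7.92 in WT, 7.80 in MOCK, 7.45 in clone 1 and 7.08 in clone 2. limma called 0 genes of the epithelial, endothelial and leukocyte lists, with 0, 2 and 0 at an unadjusted p under 0.05, against 8.75% of all probe sets. The part of other cells in the Dcn values was not tested.

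The genes whose profile over the 4 arrays was most like that of Dcn were found by the root mean square distance of mean-centred, quantile-normalized log2 signals. They were the transcription factor Sox2 (0.94 log2 units), Lilrb4a (1.01), an inhibitory leukocyte receptor, the semaphorin Sema5a (1.03), the cell cycle inhibitor Cdkn2b (1.08) and the phosphatase-like Mtmr9 (1.09). Sox2 stood at 9.01 in WT, 9.20 in MOCK, 6.61 in clone 1 and 7.83 in clone 2, so both clones were below both controls and clone 1 was the lower, as for Dcn. Sema5a stood at 9.97, 10.52, 7.82 and 8.14 on those arrays. These genes were picked for their nearness to Dcn, so a shared order follows from the choice. Neither Sox2 (limma adjusted p = 0.23) nor Sema5a (0.0808) was called. Even these nearest profiles were about 1 log2 unit per array away from that of Dcn. For Mtmr9 the groups overlapped on the quantile-normalized scale, with clone 2 at 6.99 between MOCK at 6.66 and WT at 7.54. Cdkn2b overlapped there too, with clone 2 at 7.43 between MOCK at 7.21 and WT at 8.45. Both genes also overlapped as deposited. Lilrb4a exceeded the 75th percentile of the negative controls on 1 array only.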

How the data were processed

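RNA of 4 samples of MC38 cells was measured on 1 Clariom S mouse array each. The values deposited by the authors are log2 signals, 1 per probe set and array, made with the Transcriptome Analysis Console, per the submitters' processing notes. The sources used here give neither its version nor the normalization, summarisation or genome build. The log2 scale was read from the range of the values. Groups came from the sample titles, since a cell label names the knockout on all 4 samples. Leaving 6640 control features out of 28846 gave 22206 probe sets, all tested. Symbols came from the platform annotation, matched through Entrez identifiers to the RefSeq table of GRCm38.p6, with 19572 probe sets named.

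limma 3.58.1 under R 4.3.3 (lmFit, eBayes) was fitted on all probe sets, knockout minus control, with Benjamini-Hochberg adjustment over all of them and a threshold of 0.05. The script was tested on simulated data. The smallest exact permutation p of 2 against 2 arrays is 0.333, so no such test was run. Standard errors are limma's moderated ones. Precision is limited by the number of arrays. Where a gene has several probe sets the one with the highest mean was used. Differences of a single clone from the control mean, and of MOCK from WT, have no replicates and are given without a test. The fits that leave out 1 array keep an arm of 1 array, which is assumed to vary like the other group.

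The members, gene lists, neighbours and promoter motifs were chosen with earlier results of these data known. From each list the text names called genes and up to 3 genes with the widest gap between groups among those above the 75th percentile of the negative controls on an array, and for Dcn the 5 named genes with the nearest profile. Genes outside this rule are given as examples of their list or said to be chosen afterwards. Listed genes without a matched probe set here included Tsku, Chpf2, Col12a1, Pdgfra and Cd68. Alternatives were quantile normalization, median centring, filters on dim signal, a trended robust prior, leaving out each array, the mean of all probe sets of a gene and, chosen after seeing the data, array weights.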

Additional observations from a re-analysis of the deposited data

How the results depend on the processing

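Dcn stayed lower and Bgn, Ogn, Omd and Aspn stayed higher in the knockout under all alternatives run. Only quantile normalization and median centring could have changed these signs. The filters, the trended robust prior and the mean over probe sets leave the difference as it is. As deposited both clones lay on the same side of both controls for these genes. Leaving out 1 array or weighting the arrays could therefore not turn the sign. Of the related genes named by the rule, Pdgfrb alone changed sign, to -0.038 after quantile normalization. The number of the 10 members called was 0 as deposited, 1 (Dcn) with either filter on dim signal and with the trended robust prior, and 0 to 2 when 1 array was left out (2 without clone 1, namely Dcn and Omd). The number of all probe sets called was 9 as deposited, 1 after quantile normalization, 196 with the filter at the median, 125 with the filter at the 25th percentile, 340 with the trended robust prior, and 0 (without WT) to 529 (without clone 1) when 1 array was left out. Between the clones 1 member was at least 1 log2 unit apart as deposited, 2 after quantile normalization and 2 after median centring, where 8.6% of all probe sets were higher and 4.12% lower in clone 2 as deposited, and 5.54% and 5.74% after quantile normalization. Between MOCK and WT the number was 2, and 4 after quantile normalization, where 1.85% of all probe sets were higher and 2.67% lower in MOCK. Every member has 1 probe set, so the mean over probe sets gave the same value. No paired analysis was possible because the titles number the clones but not the controls. Signals near the negative controls limit what can be said of Fmod, Lum, Prelp, Kera and Epyc.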

Other observations

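The clones differed from each other in metalloproteases that can cut decorin, chosen after their values were seen. Mmp2, a gelatinase, had a signal of 14.29 in clone 2 and 9.86 in clone 1, beside 11.61 and 12.28 in MOCK and WT. Mmp3, stromelysin, had a signal of 3.59 in clone 2, under the negative control median, and 10.03 in clone 1, beside 8.0 and 9.97 in MOCK and WT. The clones thus lay on opposite sides of the controls for Mmp2, and for Mmp3 clone 2 lay below both controls while clone 1 was near WT. Each clone is 1 array, so these differences have no test.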
